A study of Mus musculus with 7 samples.

Results

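The genes described here encode the complement system and the blood coagulation system of the mouse, and the question was where the retinoid receptors RARα, RARβ and RXRα bound near them in the liver. The list was taken by name and holds 48 genes, 24 of the complement arm and 24 of the coagulation arm. All 48 were found, under their own symbols, among 21536 protein-coding genes that had a position and a strand on GRCm38. Hc is the mouse gene of complement C5. A gene was said to have a peak when the midpoint of a peak lay within 10 kb of its start, the outermost 5′ end of its annotated span.

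Chromatin immunoprecipitation and sequencing (ChIP-seq) was done on livers of male wild type C57BL/6 mice aged 3 months. They were fed a normal diet (control) or one to which retinoic acid (RA) had been added. The labels give 1 day of feeding and the methods of the study a longer time, so the duration is uncertain. Antibodies against RARα, RARβ and RXRα were used with each diet, and 1 input library of chromatin that was not precipitated served both diets. Each receptor and diet had 1 library and 1 peak list, so no difference between lists could be set against a spread between animals, and no test between lists was made. The number of pooled livers was not given in the sources used here.

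Complement and coagulation proteins are plasma proteins, most of which are secreted by hepatocytes. Complement is started by the classical, lectin or alternative route, converges on the cleavage of C3 and C5, and ends with the membrane attack complex. Coagulation proceeds through a chain of serine proteases and their cofactors to thrombin, which turns fibrinogen into fibrin, and plasmin later dissolves the clot. RXRα is the shared partner of many nuclear receptors, among them the RARs, which bind retinoic acid.

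The 6 lists held 14968 to 61128 peaks, from 14968 for RARβ under control to 61128 for RXRα under control, and the read totals behind them were not known. The peak score was the caller's own value, not normalised between libraries, so it was read only within 1 list, as the percentage of peaks of the same list with a lower score (the standing of a peak). The hepatocyte markers Alb, Ttr, Apoa1, Tat, Cps1 and G6pc all had a peak in both RXRα lists, 6 of 6, and 3 to 5 of them had one in the other lists. The 4 markers of Kupffer cells, the liver macrophages, had 0 peaks in every list, and the 4 endothelial markers had peaks in the RARα lists (4 of 4 under each diet) and for 2 of 4 in the RXRα lists. A peak at a gene is not a measure of its expression.

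RARα and RXRα peaks lay near nearly all complement and coagulation genes, and RARβ peaks lay near more of them under RA than under control. Under control, 41 of the 48 genes had a RARα peak, which was 85.4% against 61.9% of all protein-coding genes. Under RA, 45 had one, 93.8% against 63.3%. RXRα had a peak near 42 genes under each diet, 87.5% against 61.3% of all genes under control and 61.7% under RA. RARβ had a peak near 23 genes under control, 47.9% against 44.1%, and near 37 under RA, 77.1% against 54.7%. The RARβ control count was therefore near that of all genes, whereas the other 5 counts stood above it. With peaks of a score of at least 100, the RARβ control count was 6 genes (12.5%, against 22.5% of all genes).

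The coagulation arm had peaks more often than the complement arm in all 6 lists. Of the 24 complement genes, 19 and 22 had a RARα peak under control and RA, 8 and 17 a RARβ peak, and 20 and 20 an RXRα peak. Of the 24 coagulation genes, 22 and 23 had a RARα peak, 15 and 20 a RARβ peak, and 22 and 22 an RXRα peak. The genes without an RXRα peak under either diet were 4 complement genes (C1qb, C1qc, C7 and Cfp) and 2 coagulation genes (F8 and Vwf). All of them are among the genes made mainly outside hepatocytes that are named below, more of which are complement genes. Whether this bears on the difference between the arms was not tested. Within 1 kb of the start, RARα peaks lay at 15 complement and 17 coagulation genes under control and at 17 and 20 under RA. RARβ peaks lay at 2 and 12 under control and at 12 and 17 under RA, and RXRα peaks at 14 and 21 under control and at 13 and 22 under RA. For all 48 genes within 1 kb, the RARα counts were 32 and 37 (background 45.9% and 46.2% of all genes), the RARβ counts 14 and 29 (33.1% and 40.3%), and the RXRα counts 35 and 35 (40.1% and 41.9%).

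**Figure D1:**
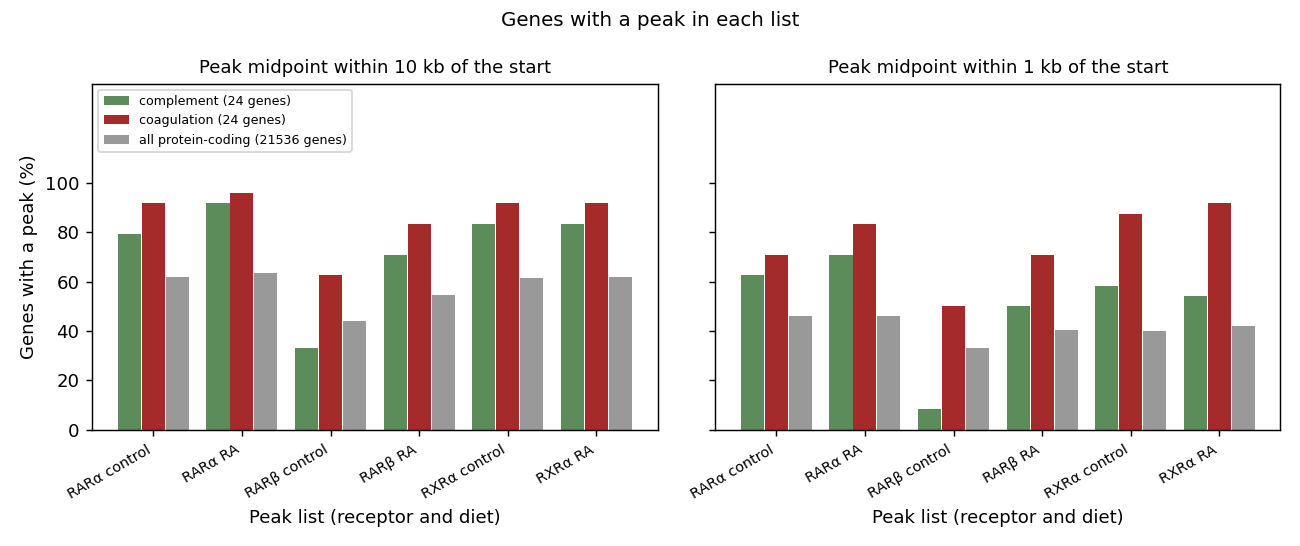
Percentage of genes (vertical axis) with a peak midpoint within 10 kb or 1 kb of the start in each of the 6 lists, for the 24 complement genes, the 24 coagulation genes and all 21536 protein-coding genes. Each list is 1 library, so there are no error bars, and the complement bar of the RARβ control list within 1 kb stands for 2 genes.

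The lists differ in length, and their depth is unknown. When each list was shortened to its 14968 highest-scoring peaks, RXRα retained a peak near 31 of the 48 genes under each diet, 64.6% against 20.6% of all genes under control and 21.4% under RA. The RARα counts were then 25 under control (52.1% against 47.1% of all genes) and 24 under RA, against 43.2%, and RARβ under RA had a peak near 26 genes (54.2% against 40.7%). Among the strongest peaks, the gap between these genes and the background was thus widest for RXRα.

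Over the genes with a peak, the best RXRα peak stood high in its list and the best RARα peak did not. The median standing of the best RXRα peak was 88.3% under control and 84.2% under RA, against 63.3% and 64.5% over all genes with a peak. For RARα it was 65.6% and 66.7%, against 79.3% and 79.0%. For RARβ it was 54.0% under control, against 68.8%, and 68.6% under RA, against 71.4%. A standing of 90% or more was reached by 17 of 42 genes for RXRα under control and 15 of 42 under RA, which was 40.5% and 35.7% against 14.1% and 13.1% of all genes with a peak. For RARα it was reached by 2 of 41 and 5 of 45 (4.88% and 11.1%, against 27.2% and 27.0%), and for RARβ by 2 of 23 and 7 of 37 (8.70% and 18.9%, against 16.0% and 19.8%).

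**Figure D2:**
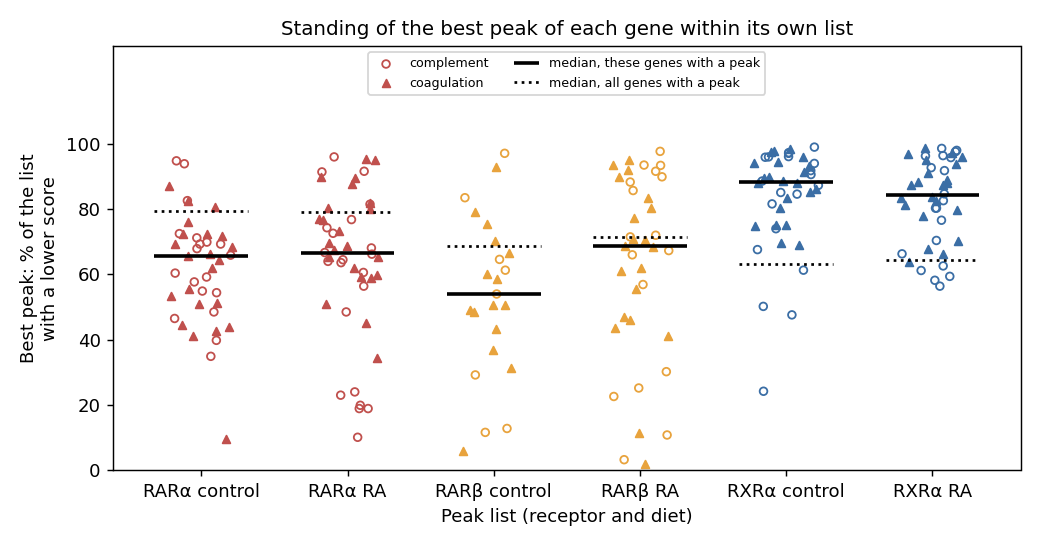
Standing of the best peak within 10 kb of each gene (percentage of peaks of the same list with a lower score, vertical axis) in the 6 lists; open circles are complement genes and triangles coagulation genes. The solid line is the median over the genes with a peak and the dotted line the median over all protein-coding genes with a peak; the solid line lies above the dotted line for RXRα (88.3% and 84.2%) and under it for both RARs under both diets.

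RXRα peaks were also more numerous around these genes. There were 129 and 123 distinct RXRα peaks within 10 kb of the 48 starts under control and RA, 76 and 96 RARα peaks, and 29 and 69 RARβ peaks. At least 3 RXRα peaks lay near 29 genes under control (60.4%, against 16.2% of all genes) and near 28 under RA (58.3% against 15.8%). Plg, the gene of plasminogen, had 6 under control and 5 under RA. RARα reached 3 peaks at 10 and 16 genes (20.8% and 33.3%, against 5.73% and 9.72%).

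In each list, the share of these peaks that lay close to the start was under that of peaks around genes in general, but the measures differed. Peaks near the 48 genes were measured from the starts of those genes only, the others from the nearest protein-coding start. A peak at another gene's start, such as that 66 bp from Srm near Masp2, was therefore close only in the general share. How much of the gap this makes up was not tested. The share within 1 kb was 42.1% for RARα under control (31.6 to 53.3, a 95% interval by Wilson's method) and 41.7% under RA (32.3 to 51.7), against 59.5% and 54.2% for peaks near any protein-coding start. For RARβ the shares were 48.3% (31.4 to 65.6) and 43.5% (32.4 to 55.2), against 73.5% and 60.3%. For RXRα they were 30.2% (23.0 to 38.6) and 29.3% (22.0 to 37.8), against 41.4% and 43.2%. The intervals cover counting error only. Of the RXRα control peaks, 37 lay at 1 to 5 kb and 53 at 5 to 10 kb. At the limit itself, the farthest RXRα control peak counted was at 9.96 kb from Hc, and the nearest not counted at 10.1 kb from Mbl2.

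Peaks of all lists that overlapped or touched were merged, which gave 151 regions near the 48 genes, 73 of them inside the span of the gene, 70 upstream of it and 8 past its end. Only 3 regions were near 2 of the genes at once, in the C1q and fibrinogen clusters. For 130 regions the nearest protein-coding start was that of one of the 48 genes, and for 21 it was another gene.

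These 21 regions included the highest-scoring RAR peaks. The best RARα peak under either diet, near C8g, the gene of the γ chain of C8, scored 438 under control and 481 under RA (standing 94.8% and 96.0%), and the RARβ peaks there scored 142 and 270. The merged region (chr2:25499745-25501396) lay 1.21 kb downstream of the C8g start and 0.179 kb upstream of the start of Fbxw5. A second RefSeq start of C8g, at position 25500506, lies inside it and was not the start used here. The best RARβ peak under either diet lay upstream of Masp2, by 3.25 kb under control and 3.04 kb under RA, and scored 319 and 389 (97.1% and 97.7%). Its region (chr4:148591025-148592133) lay 66 bp downstream of the start of Srm, the spermidine synthase gene. The RARβ control peak with a score of 211, 5.60 kb upstream of Fgb, lay in a region at 86 bp from the start of Plrg1, the region 5.44 kb upstream of Cfi at 122 bp from Gar1, and the RARα peaks at F8 at 42 bp from Fundc2. When a peak was counted only for the gene with the nearest start, the counts were 37 and 41 for RARα, 20 and 35 for RARβ, and 40 and 40 for RXRα. The share of all genes under this rule is not given here, so these counts cannot be set against the shares of all genes above.

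Promoter sequences of RefSeq (GRCm38.p6) were at hand for 38 of the 48 genes, with 40 starts. Each has 250 bases before and 50 bases after the start. They were searched on both strands for the receptor half-site AGGTCA, with G also allowed in place of its opening A and T in place of its second G. At least 1 half-site was present in 25 of the 40 promoters (62.5%), against 41.2% of 21263 promoters of protein-coding genes. Direct repeats of these half-sites with 1, 2 or 5 bases between them were in 0 of the 40, against 0.183%, 0.0894% and 0.0800% of all promoters. With 1 mismatch allowed, a choice made after the first count was seen, repeats with 1 base between were in 3 promoters (F7, F10 and Proz, against 2.34% of all) and repeats with 2 bases between in 2 (F2 and Proz, against 1.66%). A match of letters is not a binding site.

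The 250 bases upstream of 5 starts are printed because they show different peak states, with half-sites of either strand in capitals. F10 and Hrg had a peak over this stretch in all 6 lists. C3 had one in all lists but that of RARβ under control, and Fgb in 4 lists, with neither RAR under control. C7 had none in any list, although its stretch holds 2 half-sites. F10 is on chr8:13037058-13037307 (plus strand), Hrg on chr16:22950822-22951071 (plus), C3 on chr17:57228137-57228386 (minus), Fgb on chr3:83049864-83050113 (minus) and C7 on chr15:5063774-5064023 (minus).
F10: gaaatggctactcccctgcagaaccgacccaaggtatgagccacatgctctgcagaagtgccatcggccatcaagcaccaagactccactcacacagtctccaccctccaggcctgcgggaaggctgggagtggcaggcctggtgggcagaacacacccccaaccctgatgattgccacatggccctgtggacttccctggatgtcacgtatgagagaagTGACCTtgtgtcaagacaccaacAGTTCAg
Hrg: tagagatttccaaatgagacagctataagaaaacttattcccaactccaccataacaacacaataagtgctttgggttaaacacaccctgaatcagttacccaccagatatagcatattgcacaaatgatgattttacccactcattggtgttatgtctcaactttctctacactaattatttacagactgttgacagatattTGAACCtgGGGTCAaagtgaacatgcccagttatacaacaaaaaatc
C3: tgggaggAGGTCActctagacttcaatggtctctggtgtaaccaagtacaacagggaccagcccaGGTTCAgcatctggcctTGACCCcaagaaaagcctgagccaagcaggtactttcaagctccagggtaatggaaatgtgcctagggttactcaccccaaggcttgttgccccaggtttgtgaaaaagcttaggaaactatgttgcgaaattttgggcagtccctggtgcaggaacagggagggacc
Fgb: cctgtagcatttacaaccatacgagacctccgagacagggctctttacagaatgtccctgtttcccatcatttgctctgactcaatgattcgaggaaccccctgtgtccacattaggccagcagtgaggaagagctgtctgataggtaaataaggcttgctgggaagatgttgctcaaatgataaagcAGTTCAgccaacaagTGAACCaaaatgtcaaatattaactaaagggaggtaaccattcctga
C7: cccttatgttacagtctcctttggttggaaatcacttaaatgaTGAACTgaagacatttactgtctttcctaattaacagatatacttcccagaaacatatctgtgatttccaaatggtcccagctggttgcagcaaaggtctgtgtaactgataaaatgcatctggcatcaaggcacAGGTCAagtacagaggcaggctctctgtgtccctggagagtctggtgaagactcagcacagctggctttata

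Counted from the start, the half-sites begin at -30 and -7 in F10, at -47 and -39 in Hrg, at -243, -185 and -168 in C3, at -62 and -47 in Fgb, and at -207 and -72 in C7. In Hrg the pair points away from each other and in Fgb towards each other.

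The genes that start the classical route differed among themselves. C1ra and C1s1, the serine proteases of the C1 complex, had a peak in all 6 lists. At C1s1 (chr6:124530344-124542392) the best RARα peaks scored 415 and 380 under control and RA, and the RARβ peaks 80.3 and 73.3. The best RXRα peaks there scored 270 under control, 5.37 kb inside the gene, and 247 under RA, at the start. RARα thus stood highest there, at 93.9% under control. At C1ra the RXRα peaks scored 344 and 556, and the region 3.03 kb upstream of the start was called in all 6 lists. C1qa, C1qb and C1qc, which encode the recognition subunit and lie side by side on chromosome 4, had no RARα peak under control. Under RA they had 2 between them, with scores of 60.1 at the C1qa start and 69.0 at the C1qb start, both within 10 kb of C1qc. No RARβ peak lay near them, and an RXRα peak lay only 7.87 kb upstream of C1qa, with scores of 79.4 and 183.

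The genes of the C3 convertases, C2, C3, C4b and Cfb, had strong RXRα peaks at their starts. At C3, the central component, the RXRα peaks scored 713 and 937, the RARα peaks 137 and 376, and a RARβ peak was present under RA only (145). At C2 the RXRα scores were 709 and 775, at C4b 611 and 402, and at Cfb, the factor B gene, 792 and 730. In both RXRα lists, therefore, each of the 4 had a peak within 1 kb. RARβ under control had a peak near Cfb alone among them (89.1), and under RA near all 4, with scores of 200 at C2, 217 at C4b and 246 at Cfb. C2 and Cfb are neighbours, with starts 19.6 kb apart, and shared no region.

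The terminal components assemble the membrane attack complex. Hc, C6, C8a, C8b, C8g and C9 had RARα and RXRα peaks under both diets, and C7 had none. RARβ peaks lay near C8b and C8g under control, and under RA also near Hc (68.4), C6 (66.0) and C8a (111). C9 had RARα peaks (132 and 185) and RXRα peaks but no RARβ peak, the nearest being 73.6 and 58.7 kb away. Its best RXRα peak scored 141 under control, 2.66 kb upstream, and 170 under RA, at the start. At C8b the RXRα peak over the start scored 502 under control and the best one under RA scored 192, at 2.33 kb upstream.

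The lectin route recognises sugars on microbes through the mannose-binding lectins Mbl1 and Mbl2, which act through the proteases Masp1 and Masp2. The best RXRα peak within 10 kb of any of the 48 starts, under either diet, lay inside Mbl1, with scores of 1059 and 1032 (99.0% and 98.6%), at 9.56 and 9.14 kb from the start. A RARβ peak with a score of 268 lay at the start of Mbl1 under RA, and none under control. At Mbl2 the RXRα peak lay 3.24 kb upstream under control (808) and 3.14 kb upstream under RA (760), whereas the start itself was covered by RARα only (109 and 141). At Masp1 the best RXRα peaks lay 9.76 and 9.64 kb inside the gene, with scores of 702 and 888. For Masp2, RefSeq's promoter start is 7922 bp downstream of the outermost start, and a region 7.85 kb downstream of the latter was called in 5 lists, with RXRα scores of 188 and 300.

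The remaining complement genes are regulators and factors of the alternative route. Cfi, the factor I protease, had a peak in all 6 lists. C4bp, which binds C4b, had RARα peaks and RXRα peaks (133 and 178) but no RARβ peak. Its best RARα peak scored 122 at the start under control and 75.0 under RA, 3.39 kb inside the gene. Cfd, the factor D gene (adipsin), had peaks in all 6 lists, none within 1 kb of the start. Its best RXRα peak scored 536 under control, 4.05 kb upstream, and 588 under RA, 6.62 kb downstream of the start. Its region 4.05 kb upstream lay 494 bp inside Elane. Cfp, the properdin gene, had none.

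The genes of the extrinsic start of coagulation had peaks at their starts in all 6 lists. At F3, the tissue factor gene, the RARα peaks scored 305 and 451, the RARβ peaks 104 and 93.2, and the RXRα peaks 441 and 481. At F7 (chr8:13025506-13035809) they scored 260 and 256 for RARα, 85.6 and 137 for RARβ, and 577 and 631 for RXRα. F3, F7, F2, F10, Klkb1, Proc, Hrg, C1s1 and Cfb were the 9 genes with a peak within 1 kb in all 6 lists (18.8%, against 24.7% of all genes), 7 of them of the coagulation arm.

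F2, F9 and F10 encode proteases further along the chain. At F10, which lies 11.8 kb from F7, the RXRα peaks scored 445 and 747 and the RARα peaks 192 and 349. The RARβ peaks at F10 scored 74.8 under control and 249 under RA, a standing of 48.5% and 91.9%. At F2, the prothrombin gene, the RARα peaks scored 161 and 327. The best RXRα peaks at F2 scored 277 under control, 2.74 kb inside the gene, and 313 under RA, at the start. F9, whose loss causes haemophilia B, had RXRα peaks at the start (485 and 335) beside weak RARα peaks (56.8 and 89.9), and a RARβ peak near the lowest score of the list under RA only (51.1).

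The cofactor genes F5 and F8 had no RARβ peak. F5 had RARα peaks at the start (173 and 192) and its best RXRα peaks at 7.10 and 6.78 kb inside the gene (237 and 353). F8, of which the liver source is the endothelium, had only the RARα peaks at the Fundc2 start (125 under each diet).

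The contact system genes, F11, F12, Klkb1, Kng1 and Kng2, had RARα and RXRα peaks under both diets. F12 had its best RXRα peak 2.69 kb upstream under control and 2.63 kb upstream under RA, with scores of 819 and 803, in a region called in all 6 lists. At the start of Kng1, a kininogen gene, the RARβ scores were 51.7 under control and 269 under RA, and the RXRα scores 527 and 454. Its neighbour Kng2 had a RARβ peak under RA only (228). F11 and Klkb1, encoding factor XI and plasma prekallikrein, each had a peak in all 6 lists.

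The fibrinogen genes Fgg, Fga and Fgb lie side by side on chromosome 3, and the window from 10 kb before the first start to 10 kb past the last (62.1 kb, chr3:82997724-83059863) was looked at as a whole. It held 2 RARα peaks under control and 11 under RA, covering 1.34 and 19.4 kb. RARβ had 3 and 7 peaks, covering 3.20 and 6.93 kb, and RXRα 11 and 10, covering 17.2 and 9.61 kb. Both RARα control peaks lay at the edges of the window, at -26.9 kb from the Fga start and in the region at the Plrg1 start.

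In this window, the strongest RXRα peaks lay upstream of Fgg, between Fgg and Fga, at the Fga start and between Fga and Fgb. The region 4.34 kb upstream of Fgg scored 706 under control and 1026 under RA for RXRα, the region 5.64 kb upstream of Fga 723 and 684, the region at the Fga start 879 and 655, and the region past the end of Fgb 626 and 1097, the peak with 1097 lying over 10 kb from the Fgb start. RARβ under RA was called in all 4, with scores of 144, 89.7, 82.7 and 253, and under control only at the Fga start (76.8). RARα was called at the Fga start under RA alone, with a score of 464 (95.5%). The RARα peaks under RA included wide ones: in the whole group of 48 genes, 6 of 96 were wider than 2000 bp (6.25%, against 1.55% of RARα peaks near any start), and the widest, 4543 bp, lay over Fgg. Under control 7 of 76 were (9.21%, against 2.34%), the widest 5519 bp near C6.

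**Figure D3:**
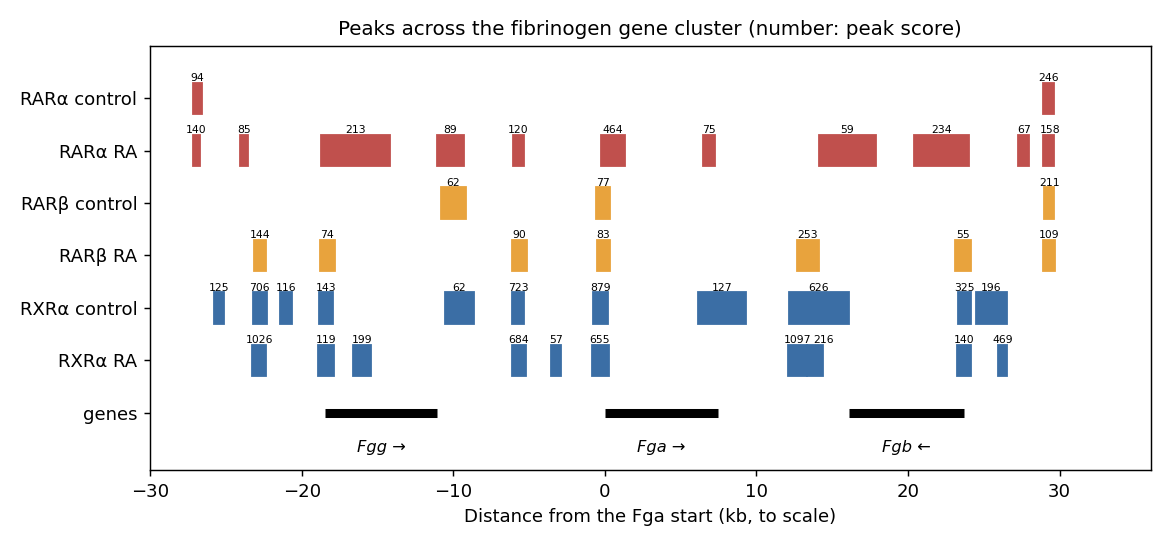
Peaks of the 6 lists across the fibrinogen gene cluster, drawn to scale by distance from the Fga start (kb, horizontal axis), with the score of each peak above it and arrows for the direction of transcription. RARα had 2 peaks under control and 11 under RA in this window, and RXRα 11 and 10.

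The other fibrin gene, F13b, encoding the B subunit of factor XIII, had RARα peaks (120 and 111) and RXRα peaks (233 and 245) at its start and its nearest RARβ peaks at 46.8 and 46.9 kb. The anticoagulant genes Proc, Pros1 and Proz, encoding protein C, protein S and protein Z, had RARα and RXRα peaks under both diets. At Proz the region 3.13 kb upstream was called in all 6 lists, with RXRα scores of 936 and 854 and RARβ scores of 127 and 294. Pros1 had a RARβ peak under RA only (174).

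Among the genes of fibrinolysis, Plg and Cpb2, which encodes the inhibitor carboxypeptidase B2, had RARβ peaks under RA only (121 and 86.2). Their best RXRα peaks scored 474 and 451 at Plg and 609 and 539 at Cpb2, at different sites under control and RA. At Plg these lay 1.93 and 9.57 kb downstream of the start, and at Cpb2 5.04 kb upstream and 8.38 kb downstream. Hrg, a plasma glycoprotein gene, had RARβ peaks under both diets (116 and 94.8). Vtn, the vitronectin gene, had peaks in all 6 lists, with RXRα scores of 409 and 230.

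**Figure D4:**
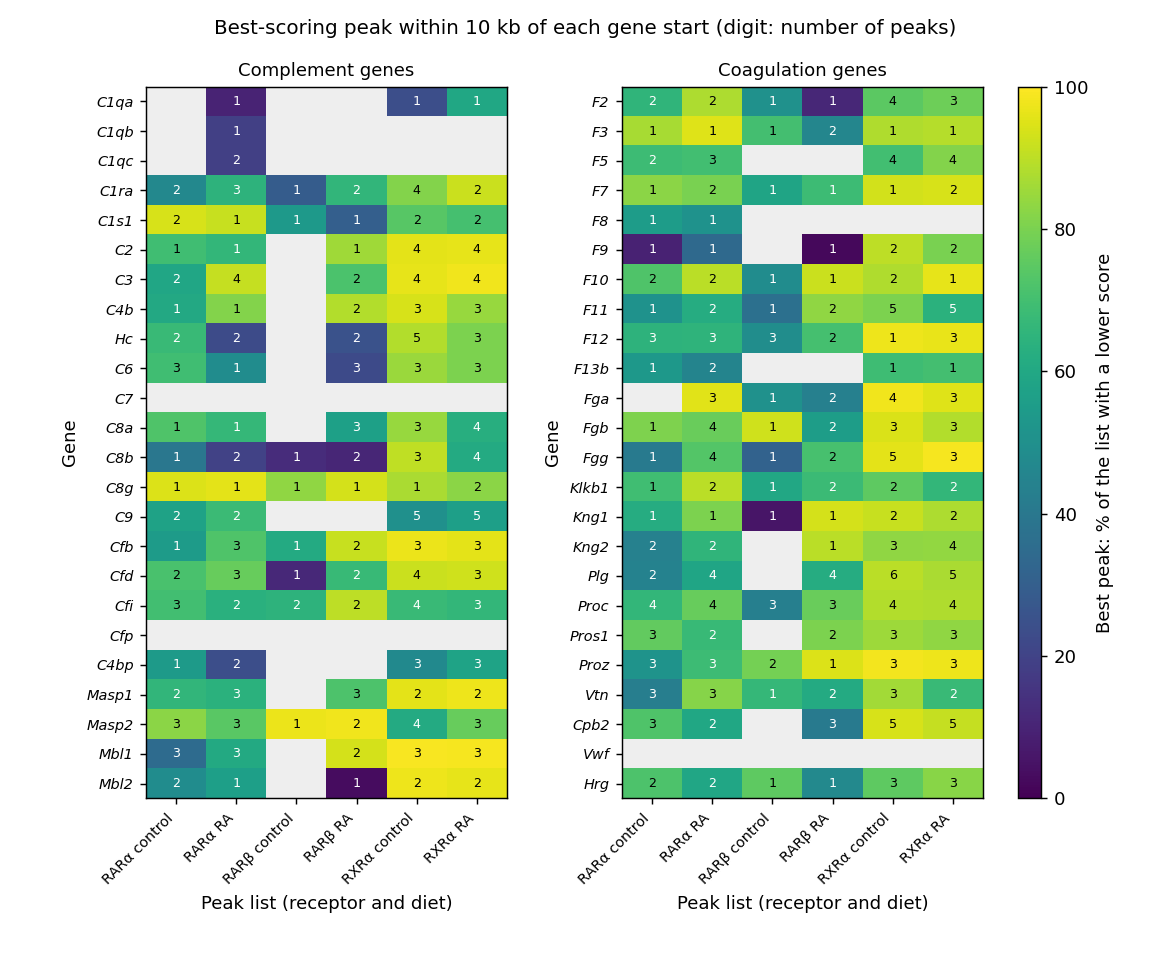
Best peak within 10 kb of each complement gene (left) and coagulation gene (right) in the 6 lists, coloured by its standing (percentage of peaks of the same list with a lower score); the digit is the number of peaks and grey means none. C7, Cfp and Vwf are grey in all 6 columns, and the RARβ control column has a peak for 23 of the 48 genes.

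In all, 22 of the 48 genes had a peak in all 6 lists (45.8%, against 38.2% of all genes), 8 of the complement and 14 of the coagulation arm, and 3 had none in any list (6.25%, against 28.2%). These 3 were C7, Cfp and Vwf. The nearest peak to the C7 start lay 22.6 kb away, in the RARα list under RA, and the nearest to Cfp 18.9 kb away, in the RXRα list under RA. Vwf, a long gene that encodes von Willebrand factor, had its nearest peak at 14.2 kb but 6 and 5 RXRα peaks inside its span.

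Of the 9 genes known to be made mainly outside hepatocytes (C1qa, C1qb, C1qc, C7, Cfd, Cfp, F3, F8 and Vwf), 3 had an RXRα peak under each diet, 3 and 6 a RARα peak, and 2 and 2 a RARβ peak, under control and RA. The other 39 genes all had an RXRα peak under both diets, 38 and 39 had a RARα peak, and 21 and 35 a RARβ peak. The 9 genes were named with earlier results of these data known, so this split is not a test of cell source. Among all protein-coding genes, 61.3% and 61.7% had an RXRα peak, 61.9% and 63.3% a RARα peak, and 44.1% and 54.7% a RARβ peak. In a whole liver, fewer cells of a type and less binding per cell cannot be told apart.

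The comparison of the diets asked which of these sites each receptor occupied without and with RA. For RXRα, the same 42 genes had a peak under both diets, and 0 under 1 diet alone, against 4.13% of all genes under RA alone and 3.72% under control alone. For RARα, all 41 genes of the control list had one under RA, and C1qa, C1qb, C1qc and Fga did so under RA alone (8.33%, against 3.88% of all genes, with 0 against 2.46% under control alone). For RARβ, all 23 genes of the control list had one under RA, and 14 more did, 29.2% of the 48 against 13.1% of all genes, with 0 against 2.51% under control alone. They were C2, C3, C4b, Hc, C6, C8a, Masp1, Mbl1, Mbl2, F9, Kng2, Plg, Pros1 and Cpb2, 9 of the complement and 5 of the coagulation arm. The one-sided counts were not present between lists of equal length. There, 9 genes had a RARβ peak under RA alone and 6 under control alone (18.8% and 12.5%, against 5.82% and 9.19% of all genes). For RARα the counts were 6 and 7 (12.5% and 14.6%, against 3.15% and 7.05%), and for RXRα 4 and 4 (8.33% each, against 4.57% and 3.71%). With scores of at least 100, 22 genes had a RARβ peak under RA alone and 2 under control alone (45.8% and 4.17%, against 19.5% and 1.87%).

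Peak by peak, an overlap of at least 25% of both widths was counted as shared. RARβ control peaks covered 31.9% (22.1 to 43.6) of the RARβ peaks under RA, against 55.6% near any protein-coding start, and in the reverse direction 72.4% (54.3 to 85.3) were covered, against 84.3%. For RARα, 78.9% (68.5 to 86.6) of control peaks and 67.7% (57.8 to 76.2) of those under RA were shared, against 89.0% and 79.2%. For RXRα, 84.5% (77.3 to 89.7) and 87.8% (80.9 to 92.5) were shared, against 82.1% and 82.2%. The value near any start lay inside the interval for RXRα in both directions and for RARβ control peaks, and above the interval for RARα in both directions and for RARβ peaks under RA. These intervals, here and between receptors below, cover counting error over the peaks of 1 library per list and are not a test. Distance from the start was not matched. For peaks within 1 kb of a start alone, the RARα shares were higher in both directions, without a value near any start beside them here.

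Of the 69 RARβ peaks under RA, 47 (68.1%, against 43.4% near any start) did not overlap any RARβ control peak. Of these 47, 44 (93.6%, against 81.7%) lay on an RXRα peak that was already present under control, 23 (48.9%, against 55.4%) on a RARα control peak, and 2 (4.26%, against 7.55%) on neither. Their median score was 78.7, a standing of 35.1%, near the 81.1 and 37.0% of such peaks near any start.

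Between receptors under the same diet, RXRα, which had the longest lists, covered most RAR peaks near these genes in the full lists. Between lists of equal length it covered a minority of them under control and a majority under RA. In the full lists RXRα shared 77.6% (67.1 to 85.5) of RARα and 86.2% (69.4 to 94.5) of RARβ peaks under control. Under RA it shared 76.0% (66.6 to 83.5) and 94.2% (86.0 to 97.7), and the values near any start were 68.0%, 79.4%, 68.9% and 88.2%. In the reverse direction, RARα shared 48.1% (39.6 to 56.6) of RXRα peaks under control and 58.5% (49.7 to 66.9) under RA, and RARβ shared 19.4% (13.5 to 27.0) and 52.8% (44.1 to 61.4). Near any start RARα shared 51.9% and 59.1% of RXRα peaks, and RARβ 33.7% and 57.6%. RARβ shared 30.3% (21.1 to 41.3) of RARα control peaks and 57.3% (47.3 to 66.7) of those under RA, and RARα shared 79.3% (61.6 to 90.2) and 79.7% (68.8 to 87.5) of RARβ peaks. The values near any start were 48.3%, 61.8%, 85.4% and 81.2%, of which the 48.3% lay above the interval and the other 3 inside theirs.

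By combination of lists, the most frequent among the 151 regions was a call in every list but that of RARβ under control, in 22 regions (14.6%, against 7.77% of 27643 regions near any protein-coding start). Regions called in RXRα under both diets alone came next, with 21 (13.9% against 13%). Regions called in all 6 lists, the most frequent kind near genes in general, numbered 18 (11.9% against 21.1%). A call in RXRα under both diets and in both RARs under RA only was made in 10 regions (6.62% against 2.54%). By receptor, 63 regions were called for all 3 receptors in either diet (41.7% against 39.4%), 42 for RXRα alone (27.8% against 26.7%), 17 for RARα alone (11.3% against 13.8%) and 0 for RARβ alone (against 1.61%).

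**Figure D5:**
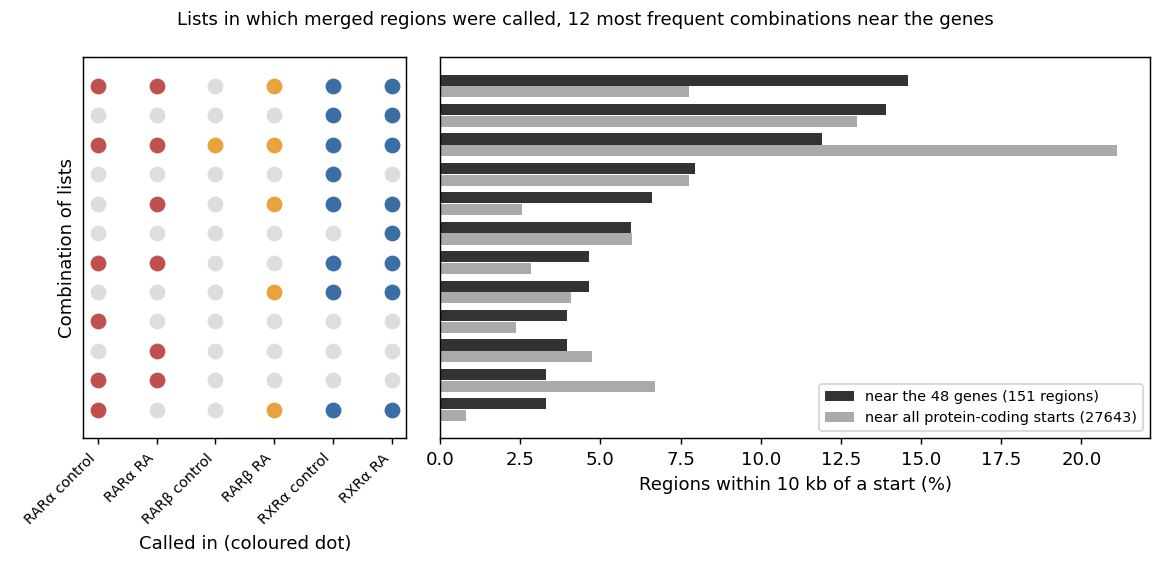
The 12 most frequent combinations of lists (left, coloured dots mark the lists in which a region was called) among merged regions within 10 kb of the 48 genes (dark bars, percentage of 151 regions) and of all protein-coding genes (grey bars, percentage of 27643). The combination of every list but the RARβ control list holds 14.6% and 7.77%, and that of all 6 lists 11.9% and 21.1%.

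Other genes of the same pathways, 40 regulators, inhibitors and receptors that are not in the list, were counted by the same rule. Of these 40, 28 and 26 had a RARα peak under control and RA (70.0% and 65.0%), 15 and 22 a RARβ peak (37.5% and 55.0%), and 27 and 26 an RXRα peak (67.5% and 65.0%). The shares of all protein-coding genes were 61.9% and 63.3% for RARα, 44.1% and 54.7% for RARβ, and 61.3% and 61.7% for RXRα. A peak in all 6 lists was present for 38.2% of all genes, and a peak in none for 28.2%. Serpinc1 (antithrombin), Serpind1 (heparin cofactor II) and Serpinf2 (the plasmin inhibitor), all secreted by the liver, had a peak in all 6 lists. So did Fcna, a lectin-route gene, and Vkorc1, the vitamin K reductase that the coagulation proteases depend on. The anaphylatoxin receptor genes C3ar1 and C5ar2, Fcnb, Vsig4, Plat, Plaur and F2rl3 had none in any list. C5ar1, another anaphylatoxin receptor gene, had a peak in every list but that of RARβ under control.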

How the data were processed

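The deposited files were 6 peak lists in BED format. Per the labels and the submitters' processing notes, the authors used Bowtie 0.12.7 (alignment of 35 bp single-end reads, mm10) and MACS 1.4.1 (peak calling), and each deposited score is that caller's value, a multiple of the negative log10 of the p-value of the peak, not normalised between libraries. No score was under 50. Read totals per list were not known, so depth could not be separated from binding. The highest peak end on chromosome Y, 90842021, places the lists on GRCm38 rather than on the older assembly at hand, of which no coordinates were used.

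Gene spans came from a RefSeq table of GRCm38.p6. The strand came from the RefSeq promoter table for 17492 genes and by symbol from GENCODE M1 for 4044 (10 of the 48). Peaks were assigned and compared in Python 3.11.15 with pandas 2.3.3 and scipy 1.17.1, and the code was checked on simulated peaks. The genes and lists were chosen with earlier results of these data known. Values were given for genes with the highest-scoring peaks of a list, with peaks in no or only some lists, with a peak within 1 kb in all lists, or in neighbouring clusters. Alternatives were distances of 1, 5 and 25 kb, a score of at least 100, equal list length, peak edges, the nearest start only, overlaps of any length or 50%, and, added after the data were seen, RefSeq promoter starts. The input library was not analysed here on its own.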

Additional observations from a re-analysis of the deposited data

Results flagged for a closer look

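The number of distinct peaks near the 48 genes under RA, relative to control, was 1.26 times for RARα and 2.38 times for RARβ, and 0.953 times for RXRα. These 3 values were picked out because the single library of each RAR moved one way and that of RXRα the other way between the diets. Near all protein-coding starts the ratios were 1.15, 1.50 and 0.990. The length of the whole list moved in the same direction as the ratio for each receptor. From control to RA it rose from 35521 to 44296 for RARα. It rose from 14968 to 29467 for RARβ, and fell from 61128 to 59624 for RXRα. With 1 library per receptor and diet the difference was not tested, and the parts of list length and library depth in it were not tested.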

How the results depend on the processing

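No paired analysis was possible because each receptor and diet had 1 library and no test was made. Of the values recomputed, 248 stayed within 1.5 times the count, or inside the 95% interval of the share or median, in the report and 103 did not. None of the values moved when the nearest peak edge, the nearest start only, RefSeq promoter starts or any overlap was used. The genes with a peak within 1 kb came to 14 (RARβ control). The complement genes with a peak within 1 kb came to 2 (RARβ control) and 13 (RXRα RA). The distinct peaks within 1 kb came to 32 (RARα control), 40 (RARα RA), 14 (RARβ control), 30 (RARβ RA), 39 (RXRα control) and 36 (RXRα RA). The median standing (%) within 1 kb came to 46.0 (RARβ RA), 82.2 (RXRα control) and 70.1 (RXRα RA). The peaks shared between diets (%) within 1 kb came to 93.8 (RARα control in RARα RA), 85.0 (RARα RA in RARα control), 94.9 (RXRα control in RXRα RA) and 97.2 (RXRα RA in RXRα control). The shares between receptors (%) within 1 kb came to 87.5 (RARα control in RXRα control), 82.1 (RXRα control in RARα control), 33.3 (RXRα control in RARβ control), 85.0 (RARα RA in RXRα RA), 88.9 (RXRα RA in RARα RA), 77.8 (RXRα RA in RARβ RA) and 93.3 (RARβ RA in RARα RA). The distinct peaks within 5 kb came to 61 (RARα RA), 42 (RARβ RA), 76 (RXRα control) and 72 (RXRα RA). The distinct peaks within 25 kb came to 123 (RARα control), 157 (RARα RA), 105 (RARβ RA), 197 (RXRα control) and 192 (RXRα RA). The median standing (%) within 25 kb came to 69.9 (RARα control), 75.5 (RARα RA), 85.6 (RARβ RA) and 91.3 (RXRα RA). The genes with a peak with scores of at least 100 came to 6 (RARβ control). The complement genes with a peak with scores of at least 100 came to 2 (RARβ control). The coagulation genes with a peak with scores of at least 100 came to 4 (RARβ control). The distinct peaks with scores of at least 100 came to 41 (RARα control), 61 (RARα RA), 6 (RARβ control) and 30 (RARβ RA). The shares of peaks close to a start (within 1 kb, %) with scores of at least 100 came to 61.0 (RARα control) and 52.5 (RARα RA). The peaks shared between diets (%) with scores of at least 100 came to 87.8 (RARα control in RARα RA) and 13.3 (RARβ RA in RARβ control). The shares between receptors (%) with scores of at least 100 came to 65.9 (RARα control in RXRα control), 31.2 (RXRα control in RARα control), 66.7 (RARβ control in RXRα control), 4.30 (RXRα control in RARβ control), 12.2 (RARα control in RARβ control), 31.9 (RXRα RA in RARβ RA) and 44.3 (RARα RA in RARβ RA). The genes with a peak at equal list length came to 25 (RARα control) and 24 (RARα RA). The complement genes with a peak at equal list length came to 12 (RARα control), 10 (RARα RA) and 13 (RXRα RA). The coagulation genes with a peak at equal list length came to 13 (RARα control) and 14 (RARα RA). The distinct peaks at equal list length came to 27 (RARα control), 28 (RARα RA), 32 (RARβ RA), 44 (RXRα control) and 39 (RXRα RA). The shares of peaks close to a start (within 1 kb, %) at equal list length came to 59.3 (RARα control), 64.3 (RARα RA), 43.2 (RXRα control) and 41.0 (RXRα RA). The median standing (%) at equal list length came to 28.7 (RARα control), 36.3 (RARα RA), 65.2 (RXRα control) and 55.5 (RXRα RA). The peaks shared between diets (%) at equal list length came to 59.3 (RARα control in RARα RA), 48.3 (RARβ control in RARβ RA), 43.8 (RARβ RA in RARβ control) and 75.0 (RXRα control in RXRα RA). The shares between receptors (%) at equal list length came to 37.0 (RARα control in RXRα control), 22.7 (RXRα control in RARα control), 41.4 (RARβ control in RXRα control), 27.3 (RXRα control in RARβ control), 51.9 (RARα control in RARβ control), 48.3 (RARβ control in RARα control), 57.1 (RARα RA in RXRα RA), 38.5 (RXRα RA in RARα RA), 68.8 (RARβ RA in RXRα RA) and 46.9 (RARβ RA in RARα RA). The peaks shared between diets (%) with an overlap of 50% came to 67.1 (RARα control in RARα RA), 53.1 (RARα RA in RARα control), 48.3 (RARβ control in RARβ RA), 20.3 (RARβ RA in RARβ control), 73.6 (RXRα control in RXRα RA) and 76.4 (RXRα RA in RXRα control). The shares between receptors (%) with an overlap of 50% came to 63.2 (RARα control in RXRα control), 37.2 (RXRα control in RARα control), 62.1 (RARβ control in RXRα control), 18.4 (RARα control in RARβ control), 48.3 (RARβ control in RARα control), 56.2 (RARα RA in RXRα RA) and 43.9 (RXRα RA in RARα RA). With 1 mismatch allowed, promoters with half-site repeats numbered 3 (1 base between) and 2 (2 bases between). The promoter starts and the mismatch were added after the data were seen. The unknown depth, the single library of each group and the lowest score of 50 limit what can be read from a missing peak: it was not called at this depth. At equal list length the RARα counts came nearer to those of all genes, and the cause was not tested.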

Other observations

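Outside the windows of 10 kb, Vwf had 3 RARα peaks inside its span under control and 5 under RA, 0 and 3 RARβ peaks, and 6 and 5 RXRα peaks. Inside the spans of C7 and Cfp there were 0 peaks in every list. At the endothelial marker genes Stab2, Cdh5, Pecam1 and Kdr, RARα had a peak near 4 of 4 under each diet and RARβ near 0 of 4. Of the 4 stellate cell markers, Lrat had RARα peaks only and Pdgfrb and Dcn RXRα peaks only, under both diets. Of the 4 cholangiocyte markers, Sox9 alone had a peak. These genes were looked at as marks of other liver cells, and no explanation was tested.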
